A study of Mus musculus with 4 samples.

Results

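Brain endothelial cells of mouse embryos with a Tie2-Cre deletion of Ucp2 were set beside those of wild-type embryos at embryonic day 15 (E15). The knockout embryos carried UCP2f/f;Tie2-cre: both alleles of Ucp2 are flanked by loxP sites, and Cre recombinase from the Tie2 promoter is active in endothelial cells and in most blood cells. The labels give C57BL/6 as the strain and Trizol as the reagent for total RNA, and each group was 1 library, with 15542930 wild-type and 16328300 knockout reads assigned to genes. How the cells were isolated, whether embryos were pooled, and whether the wild-type embryos carried Cre or the floxed allele are not stated in the labels. The genes described are those with at least 1 CPM (reads scaled to the same library total) in one of these libraries and at least 50 reads over both, off chromosomes X and Y. That left 12205 of the 19031 genes listed at E15, of 20194 listed in the series. Ratios are knockout over wild type, as log2 of CPM with 1 CPM added to each side, so they understate the differences of genes with few reads. The series' design text speaks of replicates, but 1 library per group was analysed here. There is therefore no replicate check, so every ratio compares 2 libraries and not the genotypes. Bracketed ranges are exact 95% intervals of the ratio without the added CPM, cover counting error only, and can lie beyond the log2 ratio of a gene with few reads.

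Ucp2 encodes a carrier of the inner mitochondrial membrane that moves small metabolites between mitochondria and cytosol and limits the release of reactive oxygen species. Brain endothelial cells at this age form the blood-brain barrier under Wnt and beta-catenin signalling, sprout into the growing tissue under vascular endothelial growth factor and Notch, and recruit pericytes. They also lie close to neural progenitors and release factors that act on them.

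Ucp2 (ENSMUSG00000033685, chromosome 7, 100493337 to 100502020, plus strand) was counted 4285 times in the wild-type and 2666 times in the knockout library, at 276 and 163 CPM. The log2 ratio was -0.75 [-0.83 to -0.69], short of the 2-fold difference used as the call for every other gene. Transcript reads were therefore still present in the library labelled knockout. In the E18 pair Ucp2 had 6696 wild-type and 3296 knockout reads, past 2-fold lower (log2 -1.22 [-1.29 to -1.17]). The labels do not say which exons the deletion removes, so remaining exons, cells that escaped Cre and an incomplete deletion cannot be told apart here. The neighbouring carrier gene Ucp3 had 6 and 14 reads, too few to be among the measured genes.

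Both libraries carried the defining transcripts of brain endothelium. The cell adhesion gene Pecam1 stood at 963 wild-type and 864 knockout CPM, the cadherin gene Cdh5 at 194 and 192, and the vascular endothelial growth factor receptor gene Kdr at 2588 and 2419. The 22 genes of a pan-endothelial list summed to 24694 wild-type and 27069 knockout CPM. In this list Cldn5 (6151 and 7583 CPM) and Flt1 (1328 and 2939) were higher, whereas 13 of the 22 genes had a ratio below 0 (median log2 -0.01). Transcripts on lists for other cells were also present, with sums lower in the knockout library for some lists and higher for others. Sums were taken over every listed gene with a row at E15, also those below the thresholds or on chromosome X. The mural cell list, for pericytes and smooth muscle, summed to 7810 and 5216 CPM over 16 genes, of which Rgs5 made up 5128 and 3401. The microglia and macrophage list summed to 945 and 556 CPM over 21, and the fibroblast and meninges list to 598 and 320 CPM over 16. In the fibroblast list Igf2 stood at 262 and 156 CPM and Col3a1 at 217 and 95.2. For the neuron list the sum was 156 and 76.6 CPM over 22. The oligodendrocyte lineage list summed to 185 and 99.8 CPM over 7, of which Cspg4, also a pericyte gene, made up 149 and 79.6. Sums that were higher in the knockout library were those of the astrocyte list (6498 and 7257 CPM, 11 genes), the neural progenitor list (947 and 1055, 18 genes) and the erythroid list (410 and 516, 11 genes). The mast cell list (202 and 256, 8 genes), the choroid and ependyma list (204 and 245, 11 genes) and the neutrophil list (26.3 and 40.5, 9 genes) were also higher. So were the platelet list (101 and 103, 12 genes) and the lymphatic and perivascular list (324 and 339, 6 genes). A few genes made up much of some of these sums. Sparcl1, which endothelium also makes, stood at 5671 and 6374 CPM in the astrocyte list. In the progenitor list Vim stood at 441 and 389 and Nes, which growing endothelium also makes, at 252 and 387. Kit stood at 129 and 135 in the mast cell list, and Enpp2 at 176 and 241 in the choroid list. Whether the higher sums reflect more transcripts of the named cell types was not tested. In bulk RNA, fewer cells of a type and less RNA per cell cannot be told apart. These values stand beside every result below, and their part in those results was not tested.

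**Figure D1:**
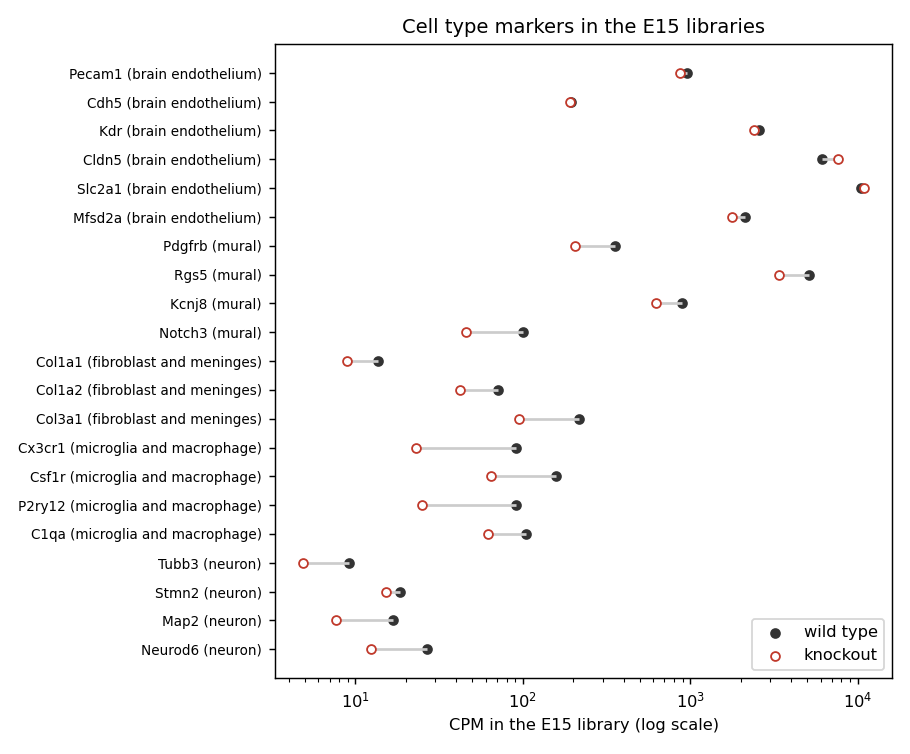
Marker genes of 5 cell types in the E15 libraries, as CPM on a log axis. Filled points are the wild-type library and open points the knockout library. The endothelial markers lie close together in each pair, whereas the mural, fibroblast, microglial and neuronal markers drawn here all lie lower in the knockout library.

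Of the 12205 genes, 437 (3.58%) were at least 2-fold higher and 401 (3.29%) at least 2-fold lower in the knockout library, 6.87% in all. The ratios were balanced, with 6044 above 0 and 6161 below and quartiles of -0.25 and 0.25. The balance ended among strongly expressed genes. Among 2335 genes with a mean under 5 CPM, 7.97% were 2-fold higher and 10.2% lower. Among the 2286 genes with at least 100 CPM in the higher library, 40 (1.75%) were higher and 5 (0.219%) lower. At E18, a comparison that shares no library with this one, 343 genes (2.88%) were higher and 458 (3.84%) lower of 11920, and the level of 100 CPM gave 4 genes higher (0.181%) and 3 lower (0.136%) of 2214. Whether the difference between the stages exceeds the variation between libraries was not tested, since each stage has 1 library per genotype.

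**Figure D2:**
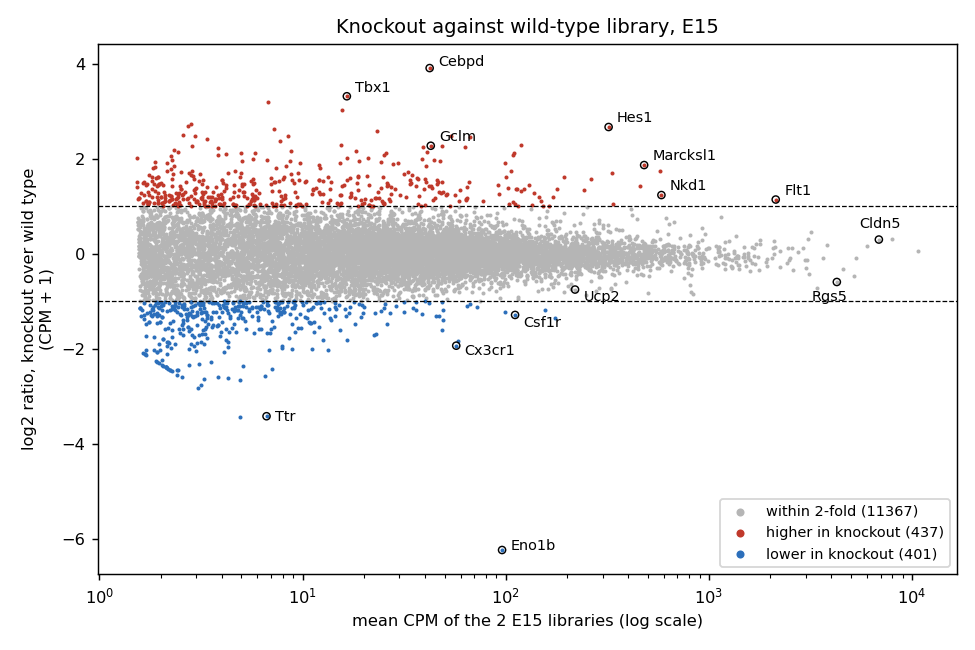
Log2 ratio of knockout over wild type (CPM with 1 added) for the 12205 measured genes at E15, against the mean CPM of both libraries on a log axis. Dashed lines mark 2-fold; 437 genes lie above and 401 below, and right of 100 CPM nearly all genes outside the lines lie above.

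Hes1 (chromosome 16, 30064384 to 30067796), a transcriptional repressor induced by Notch, had 1341 wild-type and 9076 knockout reads (log2 2.67 [2.60 to 2.77]), the highest ratio at this level. Mgat2, a Golgi enzyme that branches N-linked glycans, had 310 and 1862 reads (2.46 [2.34 to 2.69]). Ubqln1, which carries ubiquitinated proteins to the proteasome, had 615 and 3240 (2.30). In all 3 the knockout library was more than 4-fold above the wild type. Cpe, a carboxypeptidase that matures peptide hormones, had 327 and 1709 reads (2.26), and Zfand5, a zinc finger protein that stimulates the proteasome, 629 and 2936 (2.12). Those 2 genes also lay past 4-fold, as did the endosomal GTPase gene Rhob with 632 and 2872 reads (2.09).

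The next genes in the order differed by between 3-fold and 4-fold. They were the ubiquitin ligase gene Trim47 (640 and 2566 reads, log2 1.91), the actin-binding Marcksl1 (3195 and 12327 reads, 1.87), the protein kinase C gene Prkch (747 and 2688 reads, 1.76), the linker histone gene H1f0 (4109 and 14477 reads, 1.74), the GTPase gene Rac1 (2411 and 8337 reads, 1.71) and the RNA methyltransferase gene Nsun2 (755 and 2483 reads, 1.63). Rac1 drives the actin protrusions of migrating cells, and Marcksl1 binds actin at the membrane. Further down the 40 genes, and chosen here after their values were seen, stood Lmo2, a transcriptional cofactor of blood and endothelium (1073 and 3109 reads, 1.45), the lysosomal membrane glycoprotein gene Lamp1 (3888 and 10959 reads, 1.42) and Vapa, which tethers the endoplasmic reticulum to other membranes (1531 and 4205 reads, 1.38). A pair of beta-catenin antagonists was also among them, Ctnnbip1 (1243 and 3197 reads, 1.28) and Nkd1 (5395 and 13405 reads, 1.24). Flt1, a decoy receptor for vascular endothelial growth factor, had the most reads of the 40 genes, with 20645 and 47988 (1.15 [1.12 to 1.17]).

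Of the 5 strongly expressed genes that were lower, 3 encode or handle products of mesenchymal or myeloid cells. Serpinh1, the chaperone of collagen folding, had 3908 wild-type and 1594 knockout reads (log2 -1.36 [-1.45 to -1.28]). The collagen gene Col3a1 had 3368 and 1555 reads (-1.18) and the macrophage growth factor receptor gene Csf1r 2459 and 1049 (-1.29). Col3a1 is a member of the fibroblast list and Csf1r of the microglia list, so their values are part of those lists' lower sums. Ngfr, a neurotrophin receptor, had 2165 and 967 reads (-1.22). Eno1b had 2960 and 25 reads (-6.24), and it is uncertain, because it is a near-identical copy of the enolase gene Eno1, which had 8338 and 11769 reads (0.43). The other genes among the 12 lowest at this level were within 2-fold, led by Socs3, a feedback inhibitor of cytokine signalling, with 2373 and 1278 reads (-0.96), the thromboxane receptor gene Tbxa2r with 1930 and 1049 (-0.94) and the pericyte proteoglycan gene Cspg4 with 2321 and 1299 (-0.90).

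At E18 the knockout ratios of the 40 strongly expressed genes lay mostly on the same side, but closer to 0. Of the 40, 34 (85%) were above 0 at E18 with a median of 0.43, and 5 (12.5%) were again 2-fold higher. Among all 2286 genes with this level at E15, the share above 0 at E18 was 54.5% and the median 0.03. Of those 2286, 8 (0.35%) were 2-fold higher at E18. The 5, named after their values were seen, were Rnf187 (log2 1.65), Marcksl1 (1.47), Dusp2 (1.07), Vapa (1.05) and Clptm1 (1.01). At E18 Marcksl1 had 1200 and 3864 reads, Hes1 807 and 1453 (0.63) and Rac1 1027 and 2105 (0.82). Zfand5 (0.04) and Rhob (0.12) were near 0 at E18, and Prkch was on the other side (-0.54). For the whole comparison the stages had less in common. Of 351 genes that were 2-fold higher at E15 and measured at both stages, 61.5% were above 0 at E18 and 11.1% were again 2-fold higher, against 2.50% of all 11378 genes measured at both. Of 300 that were 2-fold lower, 52.3% were above 0 at E18, 10.3% were again lower (3.54% of all) and 13% were higher.

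**Figure D3:**
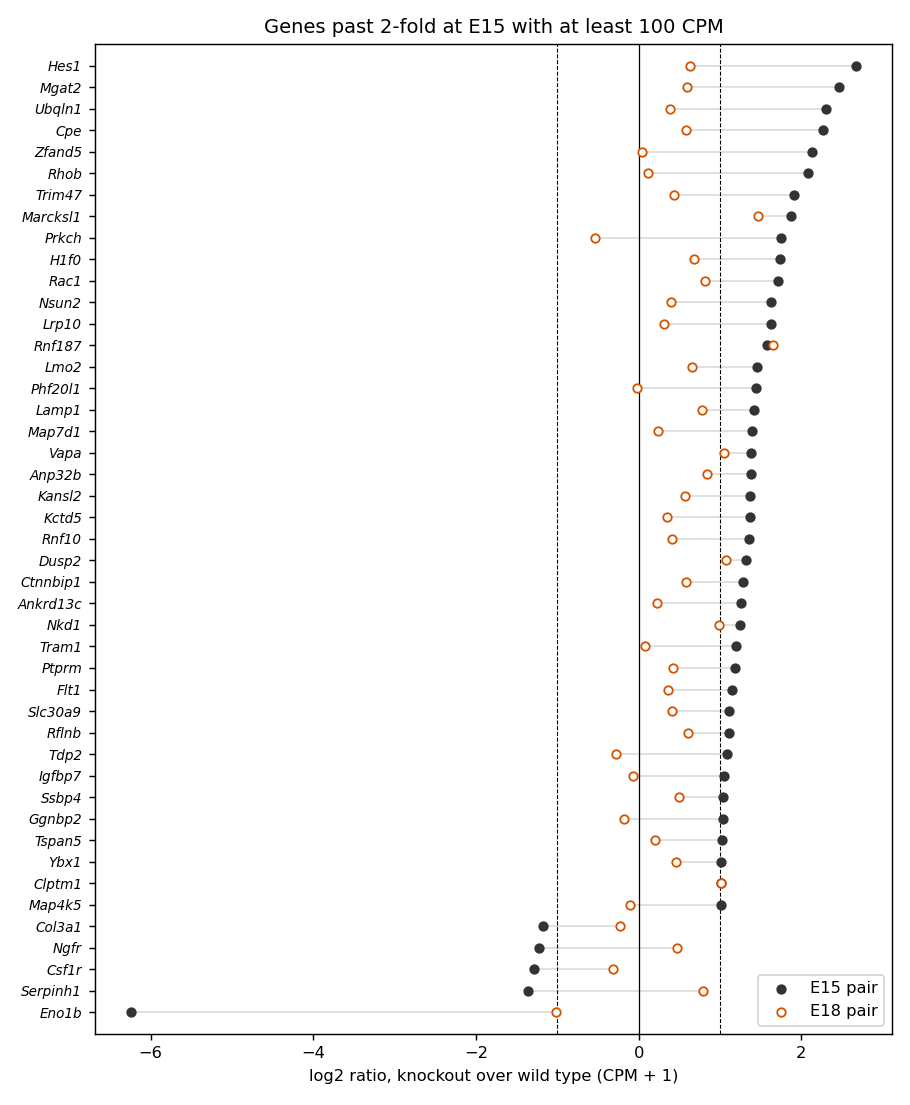
The 45 genes with at least 100 CPM that were past 2-fold at E15, in order of their E15 log2 ratio of knockout over wild type. Filled points are the E15 pair of libraries and open points the E18 pair, and dashed lines mark 2-fold. Most open points of the 40 higher genes lie right of 0 but inside the dashed line.

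The promoters of the strongly expressed higher genes were rich in G and C. RefSeq's promoter table (GRCm38.p6) held an entry, 250 bases before to 50 after the transcription start, for 32 of the 40 strongly expressed higher genes. Their median GC content was 68.2%, against 62% over 1772 genes of the same level and 61% over 8927 measured genes with an entry. All higher genes stood at 61.2% and all lower genes at 59.2%. Entries of the 3 highest genes that had one, and of Serpinh1 and Ngfr among the lower genes, are shown 5′ to 3′ on the strand of the gene, to let the windows of genes that moved in either direction be compared. They are Mgat2 (chr12:69183908-69184207, plus strand), Ubqln1 (chr13:58215604-58215903, minus strand), Zfand5 (chr19:21272028-21272327, plus strand), Serpinh1 (chr7:99353190-99353489, minus strand) and Ngfr (chr11:95587649-95587948, minus strand). Capitals mark matches, on either strand, to a GC box (GGGCGG), the RBPJ core of Notch targets (GTGGGAA), the TCF and LEF core (CTTTGAT) and the antioxidant response element core (TGACNNNGC).
Mgat2: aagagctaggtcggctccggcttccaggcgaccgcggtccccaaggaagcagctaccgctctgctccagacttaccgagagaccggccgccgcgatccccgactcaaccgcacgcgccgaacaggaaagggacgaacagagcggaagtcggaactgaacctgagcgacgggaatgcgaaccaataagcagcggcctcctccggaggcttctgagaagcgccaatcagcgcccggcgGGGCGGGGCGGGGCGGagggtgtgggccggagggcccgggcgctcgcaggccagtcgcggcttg
Ubqln1: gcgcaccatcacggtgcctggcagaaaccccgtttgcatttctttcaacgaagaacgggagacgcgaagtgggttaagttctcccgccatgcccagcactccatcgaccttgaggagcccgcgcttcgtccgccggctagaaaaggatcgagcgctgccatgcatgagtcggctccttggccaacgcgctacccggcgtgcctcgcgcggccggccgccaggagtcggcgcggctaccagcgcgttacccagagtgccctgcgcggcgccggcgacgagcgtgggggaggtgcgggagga
Zfand5: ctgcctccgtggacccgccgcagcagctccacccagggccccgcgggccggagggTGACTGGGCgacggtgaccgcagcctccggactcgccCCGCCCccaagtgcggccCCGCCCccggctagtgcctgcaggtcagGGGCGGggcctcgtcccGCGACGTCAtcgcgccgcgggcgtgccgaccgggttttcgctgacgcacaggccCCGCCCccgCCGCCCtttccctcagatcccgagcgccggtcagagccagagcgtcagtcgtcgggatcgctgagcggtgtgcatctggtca
Serpinh1: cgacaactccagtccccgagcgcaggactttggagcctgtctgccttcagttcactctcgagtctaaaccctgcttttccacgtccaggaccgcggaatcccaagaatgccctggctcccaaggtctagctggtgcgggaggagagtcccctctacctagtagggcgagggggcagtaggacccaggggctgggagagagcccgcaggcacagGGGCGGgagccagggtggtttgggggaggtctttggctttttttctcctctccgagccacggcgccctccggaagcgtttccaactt
Ngfr: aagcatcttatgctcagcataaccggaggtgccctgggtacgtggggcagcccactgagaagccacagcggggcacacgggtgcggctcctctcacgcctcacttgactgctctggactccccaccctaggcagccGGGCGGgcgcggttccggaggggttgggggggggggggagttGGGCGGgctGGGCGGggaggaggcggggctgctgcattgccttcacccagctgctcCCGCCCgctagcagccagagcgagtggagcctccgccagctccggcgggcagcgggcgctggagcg

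The Mgat2 window held 3 GC boxes that shared bases with one another, at 14, 9 and 4 bases before the start, and the Ubqln1 window held no match. Zfand5 held 5 GC boxes and 2 antioxidant response cores, Serpinh1 held 1 GC box and Ngfr 4, so GC boxes stood before genes of both directions. Shares are of genes with a match in any of their windows, and some genes had more than 1 window. The 32 genes had 34 windows and the 1772 of the same level 2335, and the shares were not corrected for this. A GC box was found for 78.1% of the 32 genes and 74.8% of the 1772, and the antioxidant response core for 6.25% and 18.6%. The RBPJ core was found for 3.13% and 6.60%, and the TCF and LEF core for 0% and 2.88%. Over all called genes, a GC box was found for 63.9% of 313 higher genes, 60% of 275 lower genes and 69.8% of the 8927. These sets had 371, 374 and 11477 windows. The antioxidant response core was in 16.9%, 19.3% and 17% of those sets, the RBPJ core in 5.11%, 9.82% and 7.23% and the TCF and LEF core in 4.47%, 2.18% and 2.81%. These are matches of letters in a short window and say nothing of binding.

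Among genes of moderate level, with at least 10 CPM in the higher library, 217 (2.47%) of 8769 were 2-fold higher and 129 (1.47%) lower. The highest was Cebpd, a transcription factor of the C/EBP family that responds to cytokines and stress, with 68 wild-type and 1308 knockout reads (log2 3.92 [3.84 to 4.57]). Tbx1, a T-box factor of pharyngeal and vascular development, had 34 and 504 reads (3.32). At E18 Cebpd was within 2-fold (71 and 113 reads, 0.38). Tbx1 was below the level measured at E18, with 11 and 30 reads (0.58 [0.20 to 2.39]). Ppm1d, a phosphatase induced by p53, had 92 and 665 reads (2.59), and Sumf1, which activates sulfatases, had 244 and 1502 (2.48). Sumf1 was about as much higher at E18 (2.22), whereas Ppm1d was near 0 there (0.13). Lonp1, a protease of the mitochondrial matrix, had 71 and 432 reads (2.30, E18 0.15). The rest of the 12 highest were Rab6b, a GTPase of Golgi traffic (8 and 212 reads), Bloc1s4, a subunit of the complex that builds lysosome-related organelles (41 and 469), Fgfbp3 (20 and 216), Scand1 (29 and 246), Efcc1 (28 and 223), Hes1 and Mgat2.

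Several of the lowest genes of this level belong to cells other than endothelium. Ttr, which carries thyroid hormone and is abundant in choroid plexus, had 202 wild-type and 5 knockout reads (log2 -3.42 [-7.05 to -4.16]). The choroid gene Aqp1 had 61 and 0 reads, at least 21.4-fold lower against a floor of 3 reads, and Folr1, below the level measured, had 49 and 0. Of 11 choroid and ependyma genes with a row at E15, 5 had no read in the knockout library (Aqp1, Folr1, Kcne2, Otx2 and Foxj1) and 0 in the wild type. Enpp2, the list's member with the most reads, went the other way (2728 and 3939 reads, 0.46), and the sum of the list was higher in the knockout library. The microglial receptor genes Cx3cr1 (1416 and 377 reads, -1.93) and P2ry12 (1417 and 408 reads, -1.83) were also among the 12 lowest, as was Dpysl5, a regulator of axon growth (195 and 25 reads, -2.42). Col15a1, a collagen of the outer basement membrane, had 180 and 34 reads (-2.03), and Vash2, an angiogenesis factor of the vasohibin family, 205 and 44 (-1.94). The others were Wdr78 of ciliary dynein (185 and 19 reads), Zfp65 (231 and 48), the chaperone relative Hspa12a (288 and 63), the DNA junction resolvase gene Gen1 (205 and 42), Gm5905 (343 and 76) and Eno1b.

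Lists of genes by cell type, pathway or complex were read by how many measured members lay above or below 0 and by their median, to be set beside 49.5% of all genes above 0. Of the 58 lists, 53 had at least 5 measured members, and in 16 at least 75% of the members lay on one side, 6 above and 10 below. Across the lists, 907 memberships were measured.

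**Figure D4:**
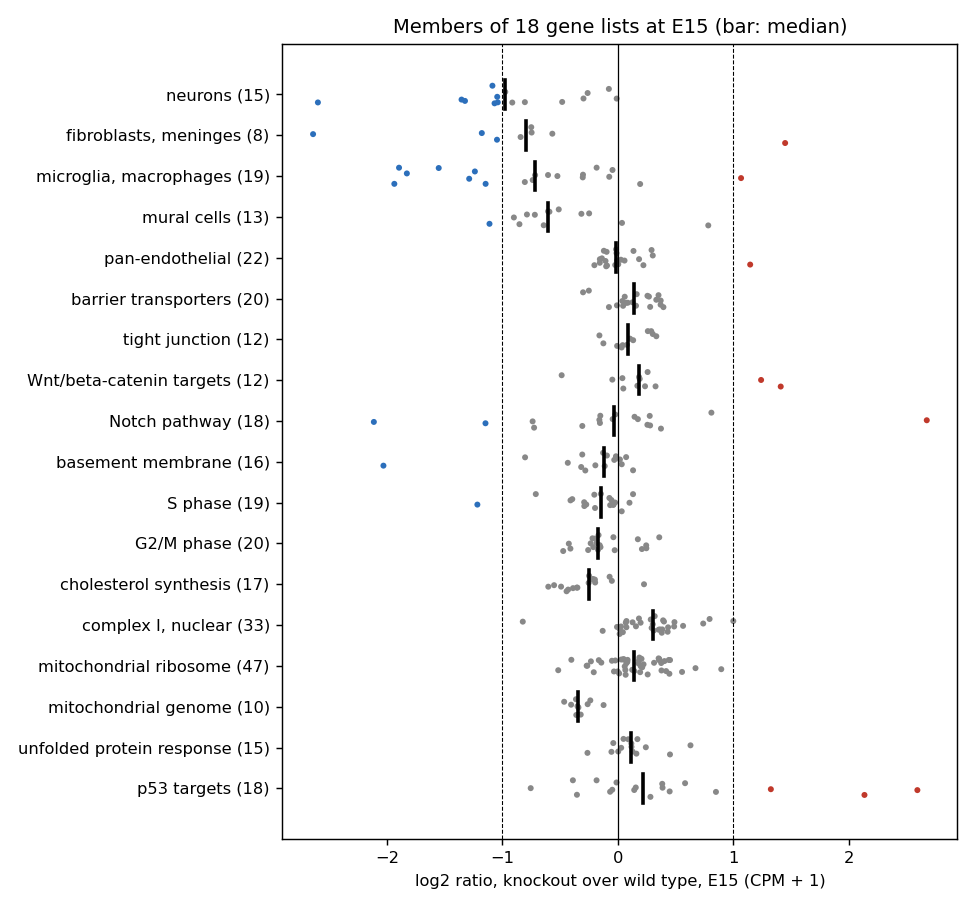
Members of 18 gene lists by their E15 log2 ratio of knockout over wild type (CPM with 1 added), with the number of measured members in brackets and a black bar at the median. Coloured points are past 2-fold (dashed lines). The lists of neurons, fibroblasts, microglia and mural cells lie to the left, and the endothelial lists are centred near 0.

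Neuronal, fibroblast, microglial and mural lists had the lowest medians of the lists with at least 5 measured members, while other lists of cells outside the endothelium lay above 0. All 15 measured neuronal genes were below 0 (median -0.97) and 7 were 2-fold lower, among them the synaptic adhesion gene Nrxn3 (113 and 6 reads) and the dendritic microtubule gene Map2 (261 and 125, log2 -1.04). Of 19 microglia and macrophage genes 17 were below 0 (median -0.72) and 7 were 2-fold lower, again beside 3.29% of all genes. Examples were the integrin gene Itgam (67 and 7 reads, -1.89) and the mannose receptor gene Mrc1 (175 and 52, -1.55). C1qc went the other way (196 and 449 reads, 1.07), although its complement partners C1qa (1613 and 1010) and C1qb (1233 and 782) were lower. Of 13 mural genes 11 were below 0 (median -0.60), with Notch3 at 1548 and 744 reads (-1.11) and the potassium channel gene Kcnj8 at 13822 and 10179 (-0.51), whereas the smooth muscle actin gene Acta2 had 35 and 75. Astrocyte genes were above 0 in 4 of 6 (median 0.11), with Sparcl1, which endothelium also makes, at 88140 and 104076 reads (0.17) and Clu at 224 and 64 (-1.65). Neural progenitor genes were above 0 in 6 of 9 (median 0.21). Nes, an intermediate filament also made by growing endothelium, had 3919 and 6311 reads (0.61), while Sox2, a defining progenitor factor, had 2 and 2. Lhx2 had 3 and 73 reads [2.93 to 6.84] at E15 but 47 and 0 at E18.

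Blood cell lists were small, and single genes went in both directions. The mast cell protease gene Cpa3 had 11 and 114 reads (log2 2.22), and Cma1 and Mcpt4, below the level measured, had 0 and 35 and 0 and 21 reads. The neutrophil granule gene Ngp had 1 read and 83, a log2 ratio of 2.51 [3.79 to 11.6]. All 3 measured genes of the neutrophil list were above 0, whereas Cxcr2, below the level measured, had 38 and 0 reads. The globin genes split, with Hbb-bs at 1229 and 1094 reads and Hba-a1 at 3309 and 5395, and Hba-a2 (3 and 93) is uncertain as a near-identical copy of Hba-a1. Platelet genes were within 2-fold in all 9 measured members. Tie2-Cre is also active in most blood cells.

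Genes of endothelial identity differed little between the libraries, as did most measured genes. Of all genes 6.87% were past 2-fold, and of those with at least 100 CPM 1.75% were higher and 0.219% lower. Of 22 pan-endothelial genes 21 were within 2-fold, from Robo4 at -0.20 to Cldn5 at 0.30, with Flt1 as the exception. The medians at both stages were near 0 (-0.01 at E15, -0.07 at E18). Transporters of the blood-brain barrier were mostly slightly higher, with 16 of 20 above 0, a median of 0.14 and none past 2-fold. The range ran from the transferrin receptor gene Tfrc (22223 and 18942 reads, -0.30) to the iron exporter gene Slc40a1 (10903 and 15058 reads, 0.39), so iron import and export lay at opposite ends. The organic anion carriers Slco1c1 (18437 and 25047 reads, 0.37) and Slc22a8 (9941 and 13155 reads, 0.33) were near the top. The lipid transporter gene Mfsd2a, which restrains transcytosis, was on the low side (32819 and 28961 reads, -0.25). Tight junction genes had 9 of 12 above 0 (median 0.09), led by Marveld2 (637 and 847 reads, 0.33) and Cldn5 (95601 and 123819 reads, 0.30). Among caveolar and fenestral genes, Plvap, the diaphragm protein of immature leaky vessels, had 2829 and 1714 reads (-0.79) and the caveolin gene Cav1 7399 and 9526 (0.29). At E18 the transporter list was divided evenly, with 10 above and 10 below 0.

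Targets of Wnt and beta-catenin were mostly above 0, in 10 of 12 (median 0.19), and 2 were 2-fold higher, beside 3.58% of all genes. These were Nkd1, given above, and Foxq1, a forkhead factor of brain endothelium, with 540 and 1534 reads (log2 1.41). Axin2, a widely used target, was near 0 (95 and 103 reads, 0.04), as was Ccnd1 (8370 and 9085 reads, 0.05), and Apcdd1 and Tnfrsf19 were at 0.17 and 0.19. Receptors and ligands of the pathway were divided 6 to 6, with beta-catenin itself, Ctnnb1, at 5149 and 9072 reads (0.74) and the coreceptor gene Lrp6 at 507 and 370 (-0.51). In the Notch list 8 of 18 members were above 0 (median -0.03). Hes1 stood alone in it above 2-fold, and the other repressors induced by Notch lay elsewhere: Hey1 had 3873 and 3652 reads (-0.16), Hey2 435 and 270 (-0.73), Heyl 3138 and 1970 (-0.74) and Hes5 31 and 43 (0.28). Of the ligands, Dll4 was near 0 (5866 and 5513 reads, -0.16), Jag1 was at 0.28, and Dll1, which neural progenitors also make, had 64 and 3 reads (-2.11 [-6.80 to -2.87]). Notch2 had 200 and 86 reads (-1.15), and the endothelial receptors Notch1 and Notch4 were at 0.17 and 0.26.

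The receptors of vascular endothelial growth factor did not move together. Flt1 was 2-fold higher while Kdr (40225 and 39497 reads, log2 -0.10) and the lymphatic receptor gene Flt4 (1579 and 1797 reads, 0.11) were near 0. Esm1, a proteoglycan induced by the growth factor at sprout tips, was lower (789 and 357 reads, -1.18). The tip cell list, which includes it, had 11 of 17 members above 0 (median 0.13) and Angpt2 at 740 and 968 reads (0.31). In the angiopoietin list the pericyte ligand gene Angpt1 had 123 and 65 reads (-0.84), and its receptor gene Tek was at -0.11. Arterial genes were below 0 in 9 of 14 (median -0.11) and venous genes in 6 of 10 (median -0.07). The venous kinase receptor gene Ephb4 had 2090 and 3580 reads (0.70), and its ligand gene Efnb2 was near 0 (234 and 254 reads, 0.04). Flow-responsive genes were divided 6 to 6, with the flow-induced factors apart: Klf4 had 1842 and 1275 reads (-0.60) and Klf2 1347 and 1902 (0.42). Members of the transforming growth factor and bone morphogenetic protein lists were near 0 (median -0.03, 8 of 18 above), and only Ltbp1, with 45 and 14 reads, was past 2-fold.

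Matrix and adhesion genes lay mostly below 0. Basement membrane genes did so in 12 of 16 (median -0.12), and at E18 also in 12 of 16 (median -0.14). Col18a1 had 16057 and 9660 reads (log2 -0.80), and the network collagens Col4a1 (51529 and 43717) and Col4a2 (38346 and 33130) were at -0.31 and -0.28. Of 15 integrins and focal adhesion genes 11 were below 0 (median -0.15), among them Itgb3 (231 and 122 reads, -0.90) and Itga2 (492 and 277 reads, -0.86). The shared beta chain gene Itgb1 stood apart with 13140 and 23495 reads (0.77), and Itgb4 had 28 and 78 (1.04). Secreted factors known to act on neural progenitors were below 0 in 11 of 19 (median -0.11), with Igf1 at 180 and 77 reads (-1.14), Igf2 at 4072 and 2543 (-0.75) and the stem cell factor gene Kitl at 6241 and 7186 (0.13). Of these, Igf2 also stands in the list for fibroblasts and meninges.

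Respiratory chain genes of the nucleus lay mostly above 0 and those of the mitochondrial genome below, while other nuclear genes of mitochondria were divided. Nuclear genes of respiratory complex I were above 0 in 30 of 33 (median 0.30), those of complexes II to IV in 19 of 23 (median 0.18) and those of the mitochondrial ribosome in 35 of 47 (median 0.14), all within 2-fold. All 10 measured genes of the mitochondrial genome were below 0 (median -0.35, range -0.46 to -0.12), from mt-Nd4 (9142 and 6954 reads) to mt-Cytb (48115 and 46390). At E18 the medians were 0.05, 0.03, 0.01 and -0.11 in the same order. The members with the most reads, Ndufv1 (0.07) and Sdha (-0.14), differed little, and the highest ratios were those of members with few reads, such as Ndufs3 (37 and 94 reads) and Cox5a (91 and 178). ATP synthase genes were divided (8 of 14 above 0), and all 15 with a row at E15 summed to 3550 and 3097 CPM. Atp5b, the catalytic beta subunit of the enzyme, had 30596 and 25418 reads (-0.34). Genes of complex I have short transcripts, with a median of 695 bases, and over all measured genes the 1223 with the shortest transcripts had a median ratio of 0.02.

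Carriers of the inner membrane, Ucp2 among them, were divided, with 13 of 28 above 0. Slc25a27, an uncoupling protein of neurons, had 95 and 37 reads (log2 -1.12) and the folate carrier gene Slc25a32 19 and 64 (1.15). The adenine nucleotide carrier gene Slc25a4 had 3064 and 3204 reads (-0.01). Among genes of mitochondrial biogenesis and dynamics, Pink1, a kinase that marks damaged mitochondria, had 316 and 986 reads (1.52), and the coactivator gene Ppargc1b 174 and 64 (-1.31). Both had the same direction at E18 (0.68 and -1.16). The mitochondrial polymerase gene Polg had 535 and 1048 reads (0.88) and the mitochondrial transcription factor gene Tfam 1202 and 991 (-0.34). The tricarboxylic acid cycle had 9 of 19 members above 0, glycolysis 8 of 16 and fatty acid oxidation 12 of 17 (median 0.10), with none past 2-fold.

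Glutathione and redox genes were above 0 in 13 of 22 (median 0.07), and 2 of 22 were 2-fold higher, beside 3.58% of all genes. Gclm, the modifier subunit of the enzyme that limits glutathione synthesis, had 217 and 1169 reads (log2 2.28), and Gsr, which reduces oxidised glutathione, 371 and 820 (1.04). The catalytic partner gene Gclc had 45 and 76 reads (0.54). Elsewhere in the list the catalase gene Cat had 9640 and 11441 reads (0.18), the peroxiredoxin gene Prdx1 9884 and 10252 (-0.02) and the sulfiredoxin gene Srxn1 40 and 13 (-0.99). At E18 Gclm was at 0.71.

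Genes of the cholesterol synthesis list were below 0 in 16 of 17 (median -0.25), though none was 2-fold lower. Lss, which closes the sterol ring, had 154 and 101 reads (log2 -0.60), Dhcr7, which makes cholesterol from its last precursor, 1403 and 1000 (-0.55), and the controlling factor Srebf2 2175 and 1920 (-0.25). Mvd was the exception (368 and 455 reads, 0.23). At E18 13 of 18 members were above 0 (median 0.12). In the list of amino acid synthesis under Atf4, 8 of 14 members were below 0 (median -0.15), with Atf4 at 5231 and 3942 reads (-0.48) and Phgdh, the first enzyme of serine synthesis, at 598 and 310 (-0.98). Protein folding and turnover genes went the other way by small amounts. The unfolded protein response had 12 of 15 above 0 (median 0.12) and at E18 14 of 15 (median 0.26), and the proteasome 19 of 28 (median 0.14) and at E18 24 of 28 (median 0.17). Heat shock genes had 9 of 13 above 0 (median 0.15), led by Hspa1a (11692 and 17882 reads, 0.54). Ribosomal protein genes of the cytosol were divided, 31 above and 26 below.

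Targets of p53 were above 0 in 11 of 18 (median 0.22), and 3 of 18 were 2-fold higher, beside 3.58% of all genes: Ppm1d, Phlda3, an inhibitor of the kinase Akt (19 and 143 reads, log2 2.13), and the DNA damage gene Gadd45a (61 and 185 reads, 1.32). The cell cycle inhibitor gene Cdkn1a had 2646 and 3639 reads (0.39) and the apoptosis gene Bax 831 and 1197 (0.45), whereas Mdm2, which degrades p53, had 1991 and 1593 (-0.39). Cell cycle genes were lower by small amounts. Of 19 S phase genes 16 were below 0 (median -0.15), with Gins1 of the replication helicase 2-fold lower (182 and 73 reads, -1.22) and Mcm2 at 2276 and 1952 (-0.29). The G2 and M phase list had 15 of 20 below 0 (median -0.17), such as Top2a (2415 and 1886 reads, -0.42) and Mki67 (1306 and 1028 reads, -0.41), whereas Plk1 had 307 and 418 (0.36).

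In lists of stress and immune signalling at most 2 members were past 2-fold in each, to be set beside 6.87% of all genes. In the list of JAK and STAT3 signalling 9 of 15 members were below 0 (median -0.11), although Cebpd had the highest ratio of all genes at its level and Socs3, another target of the pathway, was at -0.96. Stat3 had 6184 and 6503 reads (0.00). Inflammatory genes were below 0 in 7 of 11, but the cyclooxygenase gene Ptgs2 had 49 and 148 reads (log2 1.28) and the leukocyte adhesion gene Vcam1 42 and 107 (1.03). Interferon-stimulated genes were above 0 in 11 of 16 (median 0.14), with Rsad2 at 82 and 219 reads (1.20), and at E18 only 2 of 18 were above 0 (median -0.37). Antigen presentation genes were above 0 in 7 of 10, among them B2m (4281 and 6201 reads, 0.46). Immediate early genes, which rise when cells are dissociated, were below 0 in 12 of 20 (median -0.08), with Fos at 44843 and 37359 reads (-0.33). Their E18 median was -0.59. The feedback genes of ERK were below 0 in 9 of 15, with Dusp5 (30 and 98 reads, 1.26) and Spred3 (73 and 29 reads, -1.04) past 2-fold in opposite directions. Clock genes were above 0 in 9 of 14 (median 0.24), though Bhlhe41 had 67 and 18 reads (-1.34), and in the hypoxia list Ndrg1 was the one gene past 2-fold (246 and 110 reads, -1.12).

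Calls were most frequent among genes with few reads. Genes with 1 exon were 2-fold higher in 6.70% and lower in 3.29% of 791, and genes with over 2 exons in 3.19% and 3.24% of 10556, so the difference lay in the higher calls. By transcript length, the 1223 shortest had 3.19% higher and 2.04% lower, and the 1219 longest 3.69% and 4.76%. Among the 1220 genes with the highest GC content of their transcripts, 5.82% were higher and 3.93% lower. Counting error alone was exceeded by most calls, since 288 of the higher and 241 of the lower genes had their whole interval past 2-fold, but this interval does not hold the variation between embryos or preparations. In the authors' deposited table all 838 genes called here are marked as differing, together with others to a total of 1227 of the measured genes, 622 higher and 605 lower. That marking rests on the same counts of the same 2 libraries, so the overlap is no separate check.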

How the data were processed

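RNA of brain endothelial cells was sequenced in 4 libraries, 1 for each genotype and stage, and the E15 pair is described, with the E18 pair beside it. Per the file headers, the authors deposited, in a table for each stage, raw read counts per Ensembl gene, which are not normalized. Their CPM, the deposited counts scaled to the library total, sets a count of 0 to 0.5 read. The deposited ratio is the knockout CPM over the wild-type CPM, the deposited log2 value is its logarithm, and the authors' p-values come from a test that no source names. Per the submitters' processing notes, the tools were TopHat2 2.0.12, HTSeq 0.6.0 and Bowtie2 2.2.3, with no role given, and the build was mm9, but 17068 of 18988 E15 genes found in GENCODE M21 (GRCm38) have the same start and end in the table, so coordinates are read as GRCm38. The strand setting of the counting is not stated, so overlapping and antisense genes may share reads.

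From the deposited counts, CPM was computed on the library total (15542930 and 16328300 reads at E15, 19075407 and 21992660 at E18), and the log2 ratio of CPM with a pseudocount of 1 CPM. A gene was called at 2-fold on that scale. There is no test and no p-value. Intervals are exact Clopper-Pearson 95% intervals from SciPy 1.17.1, and a library with 0 reads was set to a floor of 3 reads to bound the fold. Counts carry no molecular identifiers, so intervals and floors cover counting error only. The procedure was tested on simulated data. Sizes from edgeR 4.0.16 and DESeq2 1.42.0, other pseudocounts and other filters were alternatives. Of 1089 list entries, 907 were measured, with Cavin1, Cavin2 and Cavin3 read under the older symbols Ptrf, Sdpr and Prkcdbp. Named were Ucp2, the 12 highest and 12 lowest ratios among genes with at least 10 and at least 100 CPM in the higher library, and in each list the called members (6 at most) and the 2 with the most reads. Other named genes were chosen after their values were seen, and the genes, lists and rule were chosen with earlier results of these data known. Sequences are from RefSeq.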

Additional observations from a re-analysis of the deposited data

Results flagged for a closer look

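Several genes lay past 2-fold in opposite directions at the 2 stages, as log2 ratios of knockout over wild type. The choroid plexus gene Ttr was at -3.42 at E15 and 3.20 at E18, and the microglial gene P2ry12 at -1.83 and 1.24. The collagen gene Col15a1 was at -2.03 and 1.33 and the fibroblast gene Islr at -1.05 and 1.83. The E18 values of these genes rest on few wild-type reads. Wild-type and knockout reads at E18 were 0 and 180 for Ttr, 10 and 57 for P2ry12, 5 and 48 for Col15a1 and 6 and 81 for Islr. Higher at E15 and lower at E18 were Efcc1 (2.39 and -1.47) and the cyclooxygenase gene Ptgs2 (1.28 and -1.02).

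List medians also had opposite signs with at least 75% of the members on either side: microglia and macrophages at -0.72 and 0.67, S phase at -0.15 and 0.38, and the G2 and M phases at -0.17 and 0.24. Some members of the microglia list had few reads at E18, such as Cx3cr1 (24 wild-type and 46 knockout reads), whereas Laptm5 had 3024 and 4185. Each stage has 1 library per genotype, so none of these differences between stages was tested.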

How the results depend on the processing

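The calls rested in part on genes with few reads. Against 437 genes higher and 401 lower, a pseudocount of 5 CPM left 159 and 71, so that the share of calls that were higher moved from 52.1% to 69.1%. With the whole counting interval past 2-fold there were 288 and 241. No filter beyond 1 read gave 724 lower genes, and a filter at 5 CPM 253. TMM factors (441 and 397), DESeq2 size factors (449 and 388), a pseudocount of 0.5 CPM, chromosome X kept, protein coding genes alone and centring by transcript length stayed within 1.5 times of both counts. The ratio of Ucp2 stayed inside its counting interval under the alternatives run, and 0 of the highest and lowest genes named changed direction. Under a pseudocount of 5 CPM, Cebpd was at 3.18, Ppm1d at 2.07 and the neuron list at -0.53. Some list medians changed sign, glycolysis (0.02 to -0.01, 5 CPM filter) and the tricarboxylic acid cycle (from -0.00 to 0.01, DESeq2 size factors) among them. With the 5 CPM filter the platelet list went from 0.33 to -0.09 and the Wnt receptors and ligands from -0.07 to 0.05, without a filter the erythroid list from 0.04 to -0.09, and centred by length the pan-endothelial list from -0.01 to 0.01. The count of lists with at least 75% of members on one side stayed within 1.5 times of 16.

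No paired analysis was possible because each group compared has 1 library and the groups share no replicate number. For the same reason no library was left out. At this depth 6398 listed genes were under the thresholds, and differences in them were not detectable.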
